A study of Mus musculus with 2 samples.

Results

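T cells of the stromal vascular fraction of mouse epididymal fat were taken from single-cell RNA sequencing in droplets, where a molecular tag (unique molecular identifier, UMI) lets copies of a transcript be counted as 1. A barcode was called a T cell when it held at least 200 genes and at least 2 UMIs of Cd3d, Cd3e and Cd3g together, fewer than 10 UMIs of C1qa, C1qb and C1qc together, fewer than 10 of Dcn, fewer than 3 of Cdh5 and Cldn5 together, and no more than 1 of Cd79a and Cd79b together. This rule gave 90 T cells among 2174 barcodes with at least 200 genes. The study compared male C57BL/6 mice (C57BL/6J in its methods) fed a low-fat diet (LFD) with mice fed a high-fat diet (HFD), both for 24 wk from 6 wk of age, with no other treatment or allele named. The diet of each library was taken from its own treatment label, which its title shares, because a description of the treatment given alike to both libraries names a low-fat diet only. There was 1 library per diet (10x Chromium 3' v3), the sources used here do not state how many mice each of them pooled, and they name no sort on a surface marker before capture. The LFD library gave 69 T cells and the HFD library 21, and the libraries shared 0 barcodes among all barcodes with at least 200 genes. With 1 library per diet no test between diets was possible, so values are given with 95% intervals of counting error, which do not include differences from mouse to mouse.

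T cells are lymphocytes that recognise antigen through the T cell receptor, whose signal is passed into the cell by the CD3 chains and their kinases. CD8 T cells kill infected or altered cells with granzymes and secrete interferon gamma and the chemokine CCL5, CD4 T cells help other immune cells or, as FOXP3-positive regulatory T cells, restrain them, and other T cells carry gamma delta receptors or receptors shared with natural killer (NK) cells. In visceral fat of lean mice, regulatory T cells that carry the IL-33 receptor (gene Il1rl1) and secrete amphiregulin (gene Areg) are a well known resident population, whereas effector T cells are known for their link to inflammation of obese fat.

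The CD3 genes, on which the cells were chosen, lie side by side on chromosome 9 (GRCm38: Cd3g at chr9:44969572-44980431, Cd3d at chr9:44981786-44987339 and Cd3e at chr9:44998740-45009627). Cd3g was detected in 66 of 69 LFD and 20 of 21 HFD cells, with 277 and 77 UMIs. For Cd3d there were UMIs in 53 and 16 cells, and for Cd3e in 28 and 9 cells. The sum over the 3 genes had a median of 6 UMIs in LFD cells and 4 in HFD cells, and the highest sums were 23 and 24. Just inside the limit, 8 LFD and 2 HFD cells held a sum of 2 UMIs, and just outside it, 4 LFD and 5 HFD barcodes that met the other conditions held a sum of 1. These barcodes outside were shallow, with medians of 1933.5 and 1376 UMIs. Of the 95 barcodes with a CD3 sum of at least 2, the C1q condition removed 1 in each library and the Cd79 condition removed 3 in the LFD library. Free CD3 RNA was rare, since 3 of 545 barcodes with at least 10 C1q UMIs (0.550%, median depth 6606 UMIs) and 1 of 670 with at least 10 Dcn UMIs (0.149%, median depth 8251 UMIs) held a CD3 UMI, while T cells had a median depth of 2586.5 UMIs.

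Genes of the T cell receptor pathway that took no part in the rule were present in the chosen cells. Cd2, an adhesion receptor that binds CD48, was detected in 75.6% of the 90 cells, Skap1, an adaptor of integrin activation, in 65.6%, Lat, the scaffold of receptor signalling, in 61.1%, and Lck, the kinase that starts the signal, in 52.2%. Cd247, the zeta chain of the receptor complex, was seen in 33.3% and Zap70, the kinase recruited to it, in 30%. As reference sets, barcodes without a CD3 UMI were gathered by NK receptor, Cd79, C1q or Dcn counts, giving 25 NK, 29 B, 542 macrophage and 669 fibroblast barcodes. Among the macrophage barcodes, which were deeper (median 6602 UMIs), Cd2 was detected in 6.27%, Lck in 0.554% and Skap1 in 0%. The NK barcodes, at a median of 2644 UMIs, shared much of this pathway, with Cd2 in 44.0%, Lck in 48.0% and Skap1 in 52.0%, but held Cd5 and Cd6, inhibitory and adhesive co-receptors of T cells, in 0 of 25 cells, which allows shares of up to 12% for cells with a UMI and sets no limit on cells that express them unseen. Cd5 was present in 33.3% and Cd6 in 24.4% of T cells. Constant chains of the T cell receptor are not analysed here. The label T cell therefore rests on the CD3 genes and on the signalling genes set beside macrophage barcodes.

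Of the 69 LFD T cells, 6 stood apart by UMIs of Lyz2, the lysozyme of macrophages and other myeloid cells. They held 18, 164, 197, 251, 256 and 334 Lyz2 UMIs, whereas each of the other 84 T cells held 0 or 1. These 6 cells were also the deepest group, with 9969 to 27840 UMIs and 3079 to 4996 genes per cell, and they held 33.4% of all UMIs of LFD T cells. Their CD3 sums of 3 to 8 UMIs were within the range of the other cells, and Cd2 was detected in 6 of 6, Thy1 in 5 and Lck in 4 of them. Scrublet, a doublet caller, marked none of the 6. Cd74, the invariant chain of MHC class II, was counted 28 to 331 times in each of them, and Fn1, the fibronectin gene, 464 times over the 6 cells against 0 in all other T cells. Retnla, a secreted protein of alternatively activated macrophages, was listed at 0 in 2 of the 6 cells and at 69 to 504 UMIs in the other 4. Over the list of 8 macrophage markers, LFD T cells held 1419 UMIs with these cells and 13 UMIs in 11 of 63 cells without them, HFD T cells held 4 UMIs in 4 of 21 cells, and 1, 4 and 5 of the 8 genes were at 0 in these groups. The 8 dendritic cell markers summed to 2104 UMIs in LFD T cells, to 31 without the 6 cells and to 2 in HFD T cells, and 7 fibroblast markers to 29, 8 and 1. Markers of B cells, mesothelial cells and adipocytes were at 0 in all 90 cells. Because the 6 cells weigh so much in sums over LFD cells, values are given below with and without them, and the part that another cell caught in the same droplet has in them was not tested.

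**Figure D1:**
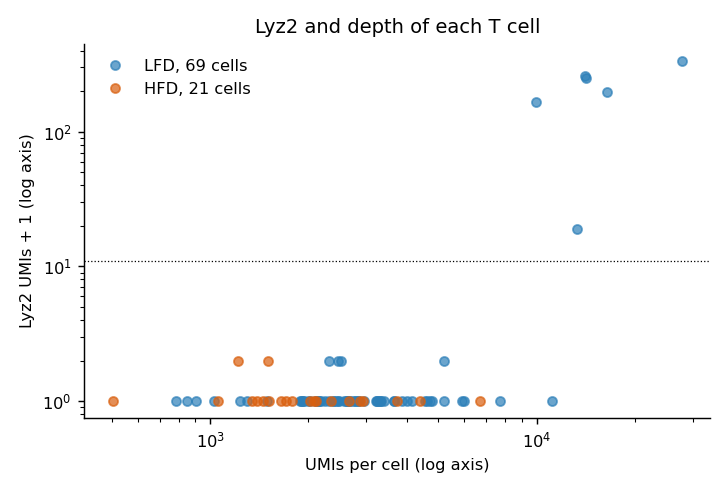
Lyz2 UMIs (with 1 UMI added, log scale) against all UMIs per cell (log scale), with 1 point for each of the 90 T cells, coloured by library, and a dotted line at 10 UMIs. The 6 cells above the line are all from the LFD library and lie at 9969 to 27840 UMIs, and all other cells hold 0 or 1 Lyz2 UMI.

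T cells made up a smaller part of the HFD library than of the LFD library. They were 69 of 1057 barcodes with LFD (6.53%, 5.11 to 8.19) and 21 of 1117 with HFD (1.88%, 1.17 to 2.86), a share 3.47-fold lower with HFD (2.15 to 5.62). Without the 6 Lyz2 cells, the LFD share was 5.96% (4.61 to 7.56) and the ratio 3.17-fold (1.95 to 5.16). Among barcodes with a UMI of Ptprc, the gene of the leukocyte antigen CD45, T cells were 63 of 343 (18.4%) with LFD and 19 of 457 (4.16%) with HFD, or 4.42-fold lower (2.70 to 7.24). The other lymphocytes did not share one value. NK reference barcodes were 14 (1.32%) and 11 (0.985%), with a log2 ratio of HFD over LFD of -0.43 (-1.56 to 0.71), and B reference barcodes were 20 (1.89%) and 9 (0.806%), with a log2 ratio of -1.23 (-2.36 to -0.10), beside -1.80 (-2.49 to -1.10) for T cells. The intervals of these 3 log2 ratios overlapped. Macrophage barcodes were 21.5% of the LFD and 28.2% of the HFD library, and fibroblast barcodes 35.7% and 26.1%, so that shares of one kind of cell also depend on how many cells of the other kinds were captured. HFD T cells were shallower, with a median of 1781 UMIs and 868 genes against 2675 UMIs and 1248 genes with LFD, which bears on a rule that counts UMIs. With a single CD3 UMI allowed, the counts were 73 and 26, and the share was 2.97-fold lower with HFD (1.91 to 4.61). Whether fewer T cells in the tissue, more of other cells or unequal recovery gave these shares cannot be told apart with 1 library per diet.

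**Figure D2:**
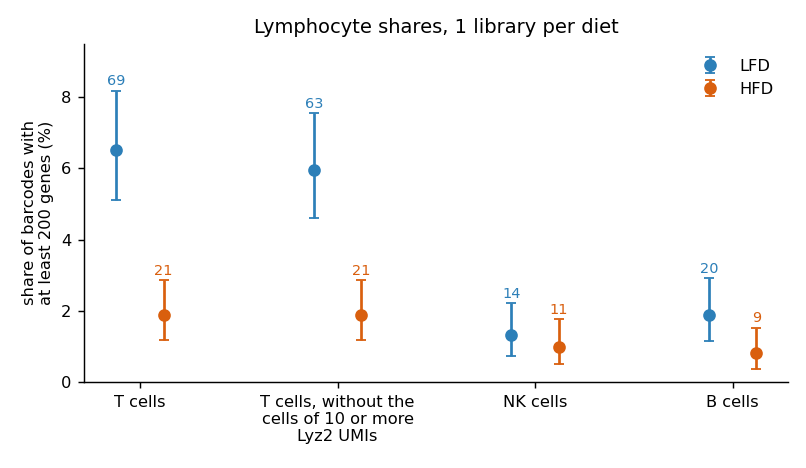
Share of barcodes with at least 200 genes (%) taken by T cells, by T cells without the 6 Lyz2 cells and by the NK and B cell sets in the LFD and HFD libraries. Points are 1 library each and bars are exact binomial 95% intervals, which cover counting error only, and the T cell intervals of 5.11 to 8.19% and 1.17 to 2.86% do not overlap.

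Most T cells carried no UMI of either co-receptor. CD8 cells, with a UMI of Cd8a or Cd8b1 (chr6:71373427-71379173 and chr6:71322788-71337494) and none of Cd4, were 20 of 69 with LFD (29.0%, 18.7 to 41.2) and 6 of 21 with HFD (28.6%, 11.3 to 52.2). CD4 cells, with a UMI of Cd4 (chr6:124864692-124888221) and none of Cd8a or Cd8b1, were 8 of 69 (11.6%, 5.14 to 21.6) and 3 of 21 (14.3%, 3.05 to 36.3). UMIs of both co-receptors met in 0 cells of either library, which allows up to 4.35% of LFD and 14.3% of HFD cells with UMIs of both. Genes this sparse set no limit on cells that carry both unseen. The remaining 41 LFD cells (59.4%) and 12 HFD cells (57.1%) held neither. The make-up by co-receptor thus differed by less than the counting error between diets, and no change of balance of CD8 and CD4 cells was detectable at this depth. The co-receptors were sparse, with 52 UMIs of Cd8b1 in 23 cells, 24 of Cd8a in 14 cells and 13 of Cd4 in 11 cells. Both CD8 genes were at 0 in NK, B and macrophage reference barcodes, Cd8b1 was seen in 1 of 669 fibroblast barcodes (0.149%), and Cd4 in 4 of 542 macrophage (0.738%) and 4 of 669 fibroblast barcodes (0.598%). When each cell was thinned to 1000 UMIs, 10 of 66 LFD and 4 of 20 HFD cells were CD8 cells and 3 and 1 were CD4 cells, after 3 LFD and 1 HFD cells too shallow for thinning were left out. In the LFD library, cells without a co-receptor UMI had a median of 2789 UMIs against 2631.5 in CD8 and 2401.5 in CD4 cells, and in the HFD library 1682 against 1768 and 2880. They are called here by that absence and not by a lineage.

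**Figure D3:**
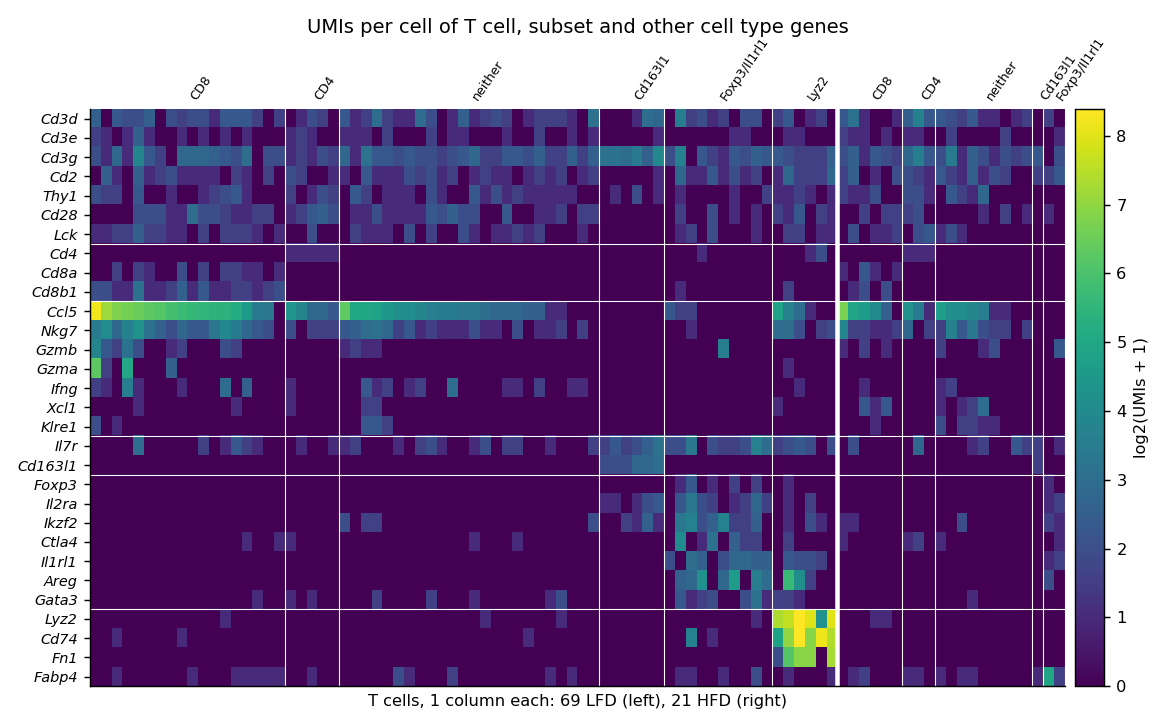
Heat map of UMIs per cell, as log2(UMIs + 1), for selected genes (rows) in the 90 T cells (columns), with 69 LFD cells on the left and 21 HFD cells on the right. Within each library the cells are grouped into those with Cd163l1, with Foxp3 or Il1rl1, with 10 or more Lyz2 UMIs (LFD only), and the remaining CD8, CD4 and neither cells, and Ccl5 and Nkg7 fill most CD8 columns, Areg and Ikzf2 many LFD columns of the Foxp3/Il1rl1 group, and Lyz2 and Cd74 the Lyz2 columns.

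CD8 cells were set apart from CD4 cells by cytotoxic and effector genes, among them the chemokine gene Ccl5. The comparison is given first without the Lyz2 cells, over 25 CD8 cells with 76621 UMIs and 9 CD4 cells with 24975 UMIs, in CPM (UMIs per 1000000 UMIs of the class). Ccl5, whose product draws T cells and monocytes (chr11:83525778-83530518), was counted 1417 times in CD8 cells and 78 times in CD4 cells, or at 18494 and 3123 CPM, a ratio of 5.92 (4.71 to 7.54). It was present in 23 of 25 CD8 and 8 of 9 CD4 cells, so that the classes differed in its level more than in its presence. The ratio was 5.18 (3.90 to 7.05) within the LFD library, over 19 and 6 cells, and 5.66 (3.81 to 8.70) within the HFD library, over 6 and 3 cells. Nkg7, a granule protein of cytotoxic cells, was counted 161 and 17 times, a ratio of 3.09 (1.87 to 5.43), with 3.16 in LFD and 2.57 in HFD cells. Gzmb, the granzyme that triggers apoptosis, was counted 42 times in 12 CD8 cells and 0 times in CD4 cells, at least 3.55-fold higher, with a bound of 2.01 within the LFD library. Within the HFD library the 4 UMIs in CD8 against 0 in CD4 cells had an interval that included 1 (from 0.616 upwards). Klrk1, the activating receptor NKG2D, was counted 33 times in 12 CD8 cells and 0 times in CD4 cells, at least 2.76-fold higher, with bounds of 1.01 within LFD and 2.84 within HFD cells. Gzma was counted 116 times in CD8 and 0 times in CD4 cells, but 77 of these UMIs were in a single cell and only 4 of the 25 cells held any. Ifng, the interferon gamma gene, was counted 29 times and once respectively, a ratio of 9.45 with a wide interval (1.57 to 386) that included 1 without the LFD cell of 11 UMIs (6.04, 0.953 to 252), and Zcchc11, an enzyme that adds uridines to RNA, 32 times and once, with an interval that included 1 within the LFD library (0.911 to 226). Arl6ip1, Bcl2a1b, St8sia4 and Tubb5 were the other genes among the 10 highest, with ratios of 4.89 to 5.70.

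Fewer genes were higher in CD4 cells. Ifi27l2a, an interferon-induced mitochondrial protein, was counted 13 times in CD8 and 24 times in CD4 cells, a CD8 to CD4 ratio of 0.177 (0.0826 to 0.361), but 20 of the 24 UMIs came from the 3 HFD CD4 cells, and within the LFD library the ratio was 0.512 (0.148 to 2.24). Npc2, a cholesterol carrier of lysosomes, had a ratio of 0.356 (0.191 to 0.665) from 24 and 22 UMIs, and of 0.322 (0.157 to 0.680) within the LFD and 0.233 (0.0241 to 1.17) within the HFD library. AW112010, an interferon-responsive transcript of lymphocytes, had a ratio of 0.474 (0.350 to 0.644) from 109 and 75 UMIs, with 0.621 within the LFD and 0.426 within the HFD library. Prelid1, Cox6b1, Gimap3, Clta, Gmfg and Lars2 followed, at 0.369 to 0.479. Over the 433 genes with at least 30 UMIs in the pair of classes, 21 (4.85%) were at least 2-fold higher in CD8 cells with an interval that left out 1, and 9 (2.08%) were lower by the same size rule. In the list of cytotoxic and effector genes, 6 of 10 compared genes were higher and 0 lower, with a median log2 ratio of 2.07 beside -0.09 over all compared genes. Summed over the list, the ratio of CD8 to CD4 cells was 4.18 (3.57 to 4.93), with 3.67 (3.01 to 4.52) within the LFD and 4.05 (3.06 to 5.43) within the HFD library. Genes of T cell receptor signalling did not follow that pattern, with 0 of 8 compared genes higher or lower and a summed ratio of 0.848 (0.704 to 1.03).

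With the Lyz2 cells kept, 1 in the CD8 and 2 in the CD4 class, 666 genes were compared and 42 (6.31%) were higher and 46 (6.91%) lower in CD8 cells. Of the 42 higher genes, 17 (40.5%) were also higher without the Lyz2 cells, but of the 46 lower genes only 3 (6.52%) were also lower without them. Without these cells 433 genes were compared. Some of the 46 genes, such as Cd74, fell under the minimum there and could not be called. With the Lyz2 cells kept, the 10 lowest ratios were those of Wfdc17 (0 and 30 UMIs), Cybb, Ctss, Ctsh, Ifitm3, Atf3, Cst3, Klf4, H2-Aa and Cd74 (133 and 407 UMIs). Genes of phagocytes, such as Cybb and Ctss, were among them. The summed ratio of the cytotoxic list was 5.33 (4.65 to 6.13), with 7 of 10 compared genes higher. Single cells also decided a few of the highest genes, since 25 of 28 Stmn1 UMIs and 26 of 35 Tubb5 UMIs of CD8 cells without Lyz2 were in 1 LFD cell. That cell, with 11095 UMIs, held 8 UMIs of Mki67 and 16 of Top2a, genes of dividing cells. A UMI of Mki67 or Top2a was seen in 7 LFD T cells (10.1%) and 1 HFD T cell (4.76%).

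**Figure D4:**
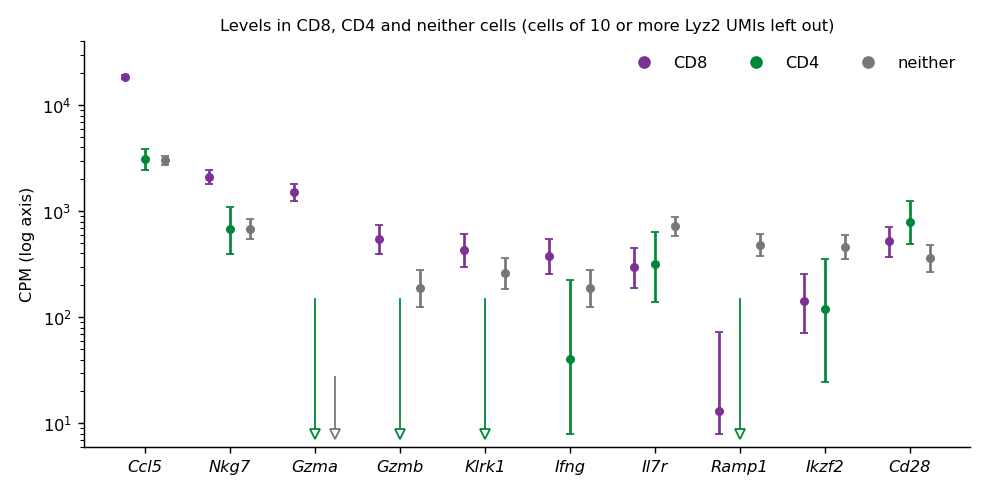
CPM (log scale) of 10 genes in CD8, CD4 and neither cells, without the 6 Lyz2 cells, with exact Poisson 95% intervals. Open triangles at the bottom mark 0 UMIs and their lines reach the upper limit, and CD4 cells lie there for Gzma, Gzmb, Klrk1 and Ramp1, while Ccl5 lies at 18494 CPM in CD8 and 3123 CPM in CD4 cells.

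Cells with neither co-receptor were a mixed class, and the genes in which it differed from CD8 and CD4 cells were in part those of smaller sets inside it. The genes named from here to the comparison with NK cells were chosen after their values were seen. Over 50 such cells against 34 CD8 or CD4 cells, without the Lyz2 cells, Tmem176a and Tmem176b, a pair of membrane proteins of intracellular vesicles, were counted 95 and 75 times against 0 and 3 times. Ramp1, the receptor partner for the neuropeptide CGRP, was counted 66 times against once, a ratio of 49.3 (8.54 to 1975). Ikzf2, the transcription factor Helios, was counted 63 and 14 times, a ratio of 3.36, and Il2ra, the IL-2 receptor alpha chain, 35 and 7 times, a ratio of 3.73 (1.63 to 9.96). In the other direction, Ccl5 was counted 411 and 1495 times, a ratio of 0.205, although 30 of the 50 cells held it. Gzma was counted 0 and 116 times, at least 41.5-fold lower in cells with neither co-receptor. Of the 50 cells, 7 held Cd163l1 and 10 others held Foxp3 or Il1rl1. The 7 cells held 73 of the 95 Tmem176a and 54 of the 75 Tmem176b UMIs, both groups together 59 of the 66 Ramp1 UMIs, and the 10 cells 41 of the 63 Ikzf2 UMIs. All 35 Il2ra UMIs lay in these 17 cells. In the remaining 33 cells the ratio was 2.49 (0.531 to 15.4) for Tmem176b, 8.71 (1.12 to 392) for Ramp1, 1.16 (0.50 to 2.65) for Ikzf2 and 0.337 (0.301 to 0.376) for Ccl5. Tmem176a was counted 15 times in 4 of the 33 cells and Il2ra 0 times. Most cells of 3 smaller sets, marked by Foxp3 or Il1rl1, by Cd163l1 and by NK receptors, held neither co-receptor, and no cell was in more than 1 of these sets.

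Foxp3, the transcription factor of regulatory T cells (chrX:7573644-7595245), was detected in 6 of the 69 T cells with LFD (8.70%, 3.26 to 18.0) and 1 of the 21 with HFD (4.76%, 0.120 to 23.8), with 1 to 4 UMIs per cell. It was at 0 in the NK, B, macrophage and fibroblast reference barcodes. All 7 cells held Il2ra (1 to 9 UMIs, median 2) and Ikzf2 (1 to 12, median 5), 6 held Areg (0 to 50, median 6), 5 held Ctla4, the inhibitory receptor of these cells (0 to 16, median 2), and 5 held Il1rl1. None held a Cd4 UMI, and 2 were placed among CD8 cells by 1 or 2 UMIs of Cd8b1, so the class by co-receptor and the presence of Foxp3 did not coincide in these cells. One of the 7 was a Lyz2 cell. The single HFD cell with Foxp3 also held 30 UMIs of Fabp4, 5 of Cd36 and 3 of Gpihbp1, genes of capillary endothelium, had 10.0% mitochondrial UMIs and was the only T cell that Scrublet marked. Against the 78 other T cells, without Lyz2 cells, the ratio was 19.2 (9.92 to 39.1) for Ctla4, 13.7 (8.57 to 22.2) for Areg, 13.5 for Tnfrsf4, the co-stimulatory receptor OX40, 10.5 (5.47 to 20.4) for Il2ra, 9.64 for Klrg1 and 7.30 for Gata3, a factor of type 2 programmes. Single LFD cells held much of these counts, and without the cell richest in the gene the ratio was 8.22 (4.65 to 14.4) for Areg, 7.31 (3.36 to 15.5) for Tnfrsf4 and 4.63 (1.75 to 11.1) for Gata3. Ccl5 was almost missing from them, with 4 UMIs in 6 cells against 1902 in 78.

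Il1rl1 (chr1:40429570-40465415) and Areg (chr5:91139599-91148432) marked a set that reached beyond Foxp3. Il1rl1 was detected in 12 LFD cells (17.4%, 9.32 to 28.4) and 2 HFD cells (9.52%, 1.17 to 30.4), and Areg in 10 (14.5%) and 1 (4.76%). Both genes met in 10 cells, and 5 of the 14 Il1rl1 cells held Foxp3. As background, Il1rl1 was seen in 11.8% and Areg in 5.90% of macrophage barcodes (median 6602 UMIs), but at 17.6 CPM there against 165 CPM in T cells for Il1rl1, and after thinning to 1000 UMIs in 2.05% of macrophage barcodes against 8.14% of T cells. By library, Il1rl1 was seen in 15.9% (11.4 to 21.3) of LFD and 8.89% (5.99 to 12.6) of HFD macrophage barcodes, so neither share of Il1rl1 cells stood above that background before thinning. Of the 14 cells, 4 were Lyz2 cells, 3 carried Cd4 and 1 carried a CD8 gene. Ltb4r1, a receptor for the chemoattractant leukotriene B4, was detected in all 14, Il7r in 11, Klrg1 in 10 and Gata3 in 7. Without the Lyz2 cells, 10 Il1rl1 cells held 75 Areg UMIs and the 74 other cells held 5, a ratio of 86.7 (35.6 to 275), and Ltb4r1 had a ratio of 9.08. These cells held 0 UMIs of Cd8b1 and 6 of Ccl5, against 50 and 1900 in the others. Il1rl1, Areg and Gata3 are also on the list of 7 markers of type 2 innate lymphoid cells, of which Il13, Il17rb and Rxrg were at 0 in all 90 cells and Il5 was counted 2 times, with LFD. Pparg, a factor of regulatory T cells in fat, was detected in 5 LFD cells with 12 UMIs and in 0 HFD cells.

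Cd163l1, a scavenger receptor known from gamma delta T cells (chr7:140218267-140231145), marked 6 LFD cells (8.70%) and 1 HFD cell (4.76%), all without a co-receptor UMI, and was at 0 in every reference set. Each of the 7 cells held Cd3g (4 to 14 UMIs, median 8), whereas 3 held Cd3d and 1 held Cd3e. Each also held Tmem176a (2 to 27 UMIs, median 8), Tmem176b (3 to 18, median 7) and Il7r, the IL-7 receptor (2 to 8, median 3). Il18r1, a receptor for IL-18, and Cxcr6, a homing receptor, were detected in 6 of 7 cells, Ramp1, Maf and Il2ra in 5 and Blk, a kinase of the B cell and gamma delta T cell lineages, in 4. None held a UMI of Lck, Cd28, Cd5, Ccl5 or Nkg7, genes that most or many other T cells held. Against the 77 other T cells without Lyz2, the ratio was 38.8 (23.8 to 65.7) for Tmem176a, 26.3 for Tmem176b, 11.7 for Il18r1, 9.10 for Gpr183 and 6.45 for Cxcr6, while Ccl5 was at least 44.1-fold lower and Nkg7 at least 6.24-fold lower. Il23r, Sox13 and Il17a, other genes of the fixed gamma delta list, were at 0 in these 7 cells. They were uneven in quality, as 3 of them held 785 to 1028 UMIs with 28.9 to 36.2% mitochondrial UMIs. Il17a itself was counted 3 times, all in 1 HFD cell of 503 UMIs and 30.4% mitochondrial UMIs.

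NK receptor genes were found on 10 T cells, which held at least 2 UMIs of Ncr1, Klrb1c, Klre1 and Klra8 together. They were 6 of the 69 with LFD (8.70%, 3.26 to 18.0) and 4 of the 21 with HFD (19.0%, 5.45 to 41.9), and 8 of the 10 held neither co-receptor. All 10 held Ccl5 (11 to 292 UMIs, median 26.5), Nkg7 (2 to 10, median 6.5) and Ly6c2, a surface protein of effector lymphocytes, and all held Cd3d and Cd3g while 3 held Cd3e. Klrd1, the partner chain of NKG2 receptors, was present in 8 and Klrk1 and Xcl1 in 7. Without Lyz2 cells, 9 such cells had 6.57-fold more Ly6c2 (4.61 to 9.35), 5.63-fold more Klrd1, 3.13-fold more Gzmb and 3.01-fold more Ccl5 than the 75 other T cells. For Gzmb and Ccl5 a single LFD cell decided these values, since it held 13 of 20 and 292 of 545 UMIs, and without it the ratios were 1.28 (0.488 to 2.84) and 1.63 (1.42 to 1.86). Xcl1, the chemokine that attracts cross-presenting dendritic cells, was seen in 6 of 69 LFD cells (8.70%, 8 UMIs) and in 7 of 21 HFD cells (33.3%, 14.6 to 57.0, 20 UMIs), at 27.9 and 426 CPM. With 28 UMIs in all it stayed under the minimum for the comparison of diets. Xcl1 was present in 64.0% of NK barcodes and 0 of 542 macrophage barcodes. Gzma (chr13:113093825-113100981) was held by 5 LFD cells with 1, 2, 5, 32 and 77 UMIs, all of the CD8 class and the cell with 1 UMI being a Lyz2 cell. It was counted in 0 of 21 HFD T cells, which allows a share of up to 14.3% for cells with a UMI but not for cells that express it unseen, although HFD NK barcodes held it in 7 of 11.

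NK cells share the cytotoxic genes of T cells, and both sets were chosen on expression, so their contrast is a description. Over 84 T cells without Lyz2 and 25 NK barcodes, 1515 genes were compared, of which 86 (5.68%) were higher and 62 (4.09%) lower in T cells. Ly6a (Sca-1) was counted 87 times in T cells and 0 times in NK barcodes, Areg 80 and 0, Tnfrsf4 46 and 0, and Il1rl1 43 and 0. Tyrobp, the adaptor DAP12 of NK and myeloid receptors, was counted 22 and 179 times, a ratio of 0.0368 (0.0225 to 0.0574), and was present in 7 of 84 T cells and 24 of 25 NK barcodes. Fcer1g, another adaptor of the same kind, had a ratio of 0.0552 and was present in 7 of 84 and 25 of 25. Klra4, an NK receptor of the Ly49 family, was counted 0 and 47 times, at least 41.0-fold lower in T cells. MHC class II genes were also among the 10 lowest, but from few NK barcodes, with 59 UMIs of H2-Aa in 4, 132 of Cd74 in 2, 40 of H2-Eb1 in 3 and 35 of H2-Ab1 in 3 of them, against 6, 16, 9 and 10 UMIs in T cells. No NK barcode held 10 or more Lyz2 UMIs. By list, regulatory T cell genes were higher in T cells for 6 of 6 compared genes (summed ratio 3.88), receptor signalling genes for 5 of 16 with 1 lower (1.63, 1.40 to 1.90), and cytotoxic genes were lower for 9 of 16 with 0 higher (0.716, 0.673 to 0.763). The median log2 ratio over all compared genes was -0.03.

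Between diets, the genes of T cells were compared as summed UMIs, 286378 over 69 LFD cells and 46943 over 21 HFD cells. Among 1637 genes with at least 30 UMIs over both libraries, 42 (2.57%) were higher with HFD and 124 (7.57%) lower, by at least 2-fold with an interval that left out 1. At equal levels a gene at that minimum would hold 4.2 HFD UMIs, or 5.9 without the Lyz2 cells. Genes low with HFD could therefore enter through LFD UMIs alone, and 44 compared genes held 0 HFD UMIs. For this reason the numbers of higher and lower genes cannot be weighed against each other. Without the Lyz2 cells, 1118 genes were compared over 63 and 21 cells, and 17 (1.52%) were higher and 45 (4.03%) lower. Of the 42 higher genes, 15 were also higher without these cells, and of the 124 lower genes, 25 were also lower. The lowest ratios over all cells belonged to myeloid genes that the 6 cells carried, among them Cd74 (1083 UMIs with LFD and 0 with HFD), Retnla (1083 and 1), Fn1 (464 and 0), Lyz1 (449 and 0), H2-Eb1 (395 and 0), Ccl6 (212 and 0), Il1b (152 and 0) and Tnip3 (113 and 0). Without the 6 cells, Cd74 was counted 16 times with LFD and Retnla 13 times, and neither was compared. The ratios of these myeloid genes are therefore values of the 6 LFD cells, and the genes named next are given with both settings.

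Cd2, Bcl2, Klrd1 and Dnajc15 were among the genes higher with HFD in both settings. Cd2 was counted 104 times in 51 of 69 LFD cells and 43 times in 17 of 21 HFD cells, a ratio of HFD over LFD of 2.52 (1.73 to 3.63), and of 2.06 (1.39 to 3) without the Lyz2 cells. Bcl2, which protects lymphocytes from apoptosis, was counted 39 times in 22 LFD cells and 20 times in 11 HFD cells, with ratios of 3.13 (1.73 to 5.50) and 2.32 (1.27 to 4.14). Klrd1 had 23 and 14 UMIs and ratios of 3.71 (1.77 to 7.53) and 2.71 (1.27 to 5.59), and Dnajc15, a co-chaperone of mitochondria, ratios of 2.5 (1.60 to 3.82) and 2.06 (1.31 to 3.21). Under the study's limits on genes and mitochondrial UMIs, which kept 33 LFD and 8 HFD cells, Dnajc15 was at 0.01 on the log2 scale, and Bcl2 was at 0.95 on the same scale after thinning each cell. A second group passed the size rule over all cells only. Klrk1 moved from 2.53 to 1.90, and to the other side under the study's limits (-1.35 on the log2 scale). Ctsw, a protease of cytotoxic cells, moved from 2.61 to 1.90, AW112010 from 2.37 to 1.70, Thy1, a surface protein of T cells, from 2.20 to 1.59, and Ms4a4b, a regulator of T cell activation, from 2.08 to 1.54. Psmb9 went from 2.20 to 1.88, and Cycs, Rbx1 and Crlf3 were likewise above 2 over all cells only. Without the Lyz2 cells, Psme1, a proteasome activator, had a ratio of 2.20 (1.31 to 3.62), Ppp1r15a, a stress response gene, of 2.22 and Ifi27l2a of 2.08 (1.21 to 3.46), the last with 24 UMIs in 5 HFD cells. Single cells carried part of these values. Without the HFD cell richest in the gene, beside the Lyz2 cells, Cd2 stayed just above 2 (1.33 to 2.97), Bcl2 (1.92), Klrd1 (1.99), Dnajc15 (1.96) and Psme1 (1.97) were just under 2, with intervals that included 1 for Bcl2 and Klrd1, and Ppp1r15a and Ifi27l2a were at 1.25 (0.616 to 2.36) and 1.27 (0.648 to 2.35). Fabp4, a lipid carrier of endothelium, macrophages and adipocytes, had the highest ratio, 10.4 with 24 and 41 UMIs, but 30 of the 41 were in the 1 HFD cell that also held Cd36 and Gpihbp1. The list of 6 endothelial markers summed to 43 UMIs in LFD T cells, 28 without the Lyz2 cells, and to 52 in HFD T cells, 40 of them in that cell. Fabp4 was also present in 72.9% of macrophage, 64.0% of fibroblast and 51.7% of B reference barcodes, at median depths of 6602, 8244 and 2910 UMIs. By library, its level with LFD and HFD was 249 and 864 CPM in macrophage and 455 and 600 CPM in fibroblast barcodes. In NK barcodes it was 43.1 and 284 CPM, so a higher level in the HFD library was not particular to T cells.

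Areg and Gata3, of the resident regulatory programme, were lower with HFD in both settings. Areg was counted 146 times in 10 LFD cells and 3 times in 1 HFD cell, a ratio of 0.125 (0.0256 to 0.374), and of 0.158 (0.0319 to 0.480) without the Lyz2 cells. Gata3 was counted 39 times in 18 LFD cells and once in the HFD cells, with ratios of 0.156 (0.00386 to 0.924) and 0.120 (0.00294 to 0.712). The HFD cell with Areg was the one that Scrublet marked. Under the study's limits no HFD cell with either gene was left, and the LFD cells with Areg held 5, 6 and 7 UMIs. Neither gene then reached the minimum for the comparison. For Il1rl1 the counts were 52 and 3, and the ratio of 0.352 (0.0703 to 1.09) included 1 over all cells, whereas that of 0.305 (0.0603 to 0.957) without the Lyz2 cells did not. Under the study's limits Il1rl1 was on the other side, at 0.65 on the log2 scale from few UMIs. The interval likewise left out 1 only without the Lyz2 cells for Il2ra, with 0.436 and 0.313 (0.0618 to 0.983), and for Ikzf2, with 0.660 and 0.471 (0.196 to 0.981). Foxp3 had 11 and 1 UMIs and was too rare to compare. After thinning to 1000 UMIs per cell, the share of cells with a UMI was not lower with HFD for Il1rl1 (5 of 66 LFD and 2 of 20 HFD cells), Il2ra (4 and 2 cells) and Foxp3 (3 cells and 1), while Areg was seen in 7 and 1. Without the LFD cell richest in the gene, beside the Lyz2 cells, Areg was at 0.226 (0.0451 to 0.696) and Gata3 at 0.152 (0.00371 to 0.925), and the intervals of Il1rl1, Il2ra, Ikzf2 and Tgfb1 included 1. Tgfb1, the transforming growth factor gene, was lower in both settings, with 75 and 3 UMIs and ratios of 0.244 (0.0492 to 0.741) and 0.313 (0.0618 to 0.983).

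Effector genes went different ways. Ccl5 was counted 1664 times in 50 of 69 LFD cells and 290 times in 15 of 21 HFD cells, a ratio of 1.06 (0.935 to 1.21) over all cells and of 0.729 (0.641 to 0.827) without the Lyz2 cells. Nkg7 had ratios of 1.77 and 1.31 and Gzmb of 1.58 and 1.05, with intervals around 1 in the second setting. Gzma, with 117 UMIs with LFD and 0 with HFD, was at least 5.12-fold lower with HFD, but these UMIs came from the 5 cells described above. Ifng was counted 53 times in 20 LFD cells and 4 times in 3 HFD cells, with ratios of 0.460 (0.121 to 1.25) and 0.313 (0.0821 to 0.849). Ccl4, another chemokine of activated CD8 cells, had 46 and 2 UMIs and ratios of 0.265 (0.0312 to 1.01) and 0.181 (0.0212 to 0.691). Cxcr6 and Ramp1, named above for cells with neither co-receptor, had ratios of 0.678 and 0.458 over all cells and of 0.478 and 0.40 without the Lyz2 cells, where they passed the size rule, but the 6 HFD UMIs of Ramp1 were in 1 cell. Traf1, a signalling adaptor, went from 0.474 to 0.379 and Stmn1 from 0.271 to 0.232, the latter with 25 of its LFD UMIs in the dividing cell. Rapgef6, G3bp2, Pak2, Spty2d1, Tln1 and Nfkbiz were the other genes among the 12 lowest without the Lyz2 cells, at 0.254 to 0.401. Gzma was not checked without its richest cell. Of the 22 other lower genes named here or among the regulatory and immediate early genes, 9 passed the size rule without the LFD cell richest in the gene. These were Areg, Gata3, Ccl4, Traf1, Fosb, Rapgef6, G3bp2, Pak2 and Tln1. Without that cell Ccl5 was at 0.871 (0.765 to 0.990), Ifng at 0.392 (0.102 to 1.08) and Stmn1 at 0.765 (0.0815 to 3.59).

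**Figure D5:**
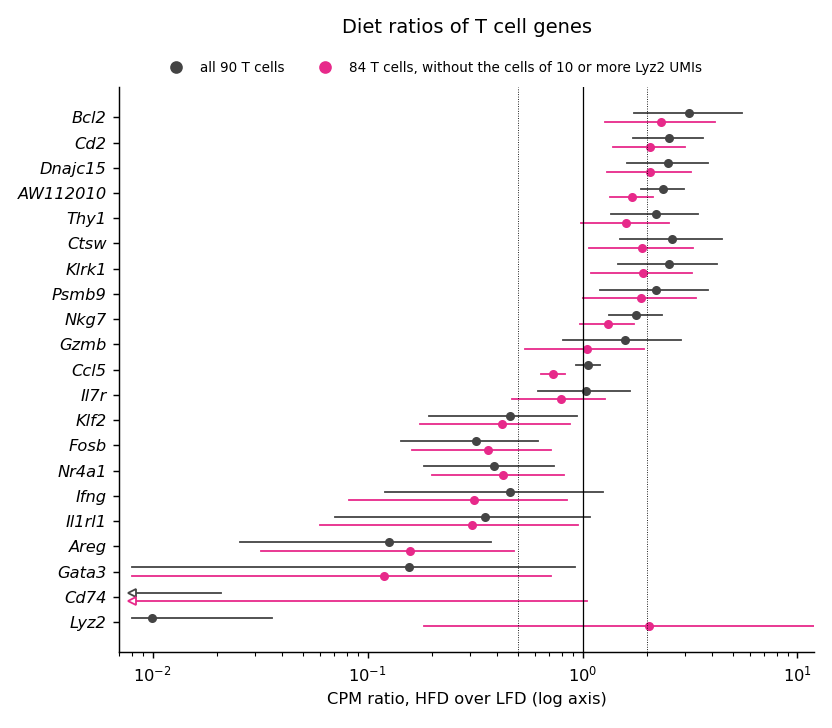
Ratio of CPM in HFD over LFD T cells (log scale) for 21 genes, with all T cells and without the 6 Lyz2 cells, and with exact conditional 95% intervals. Dotted lines mark 0.5 and 2 and open triangles mark genes with 0 HFD UMIs, and Cd2, Bcl2 and Dnajc15 lie above 2 and Areg and Gata3 below 0.5 in both settings, while Ccl5 moves from 1.06 to 0.729.

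Immediate early genes, which respond within minutes to stimulation and also to tissue dissociation, were partly lower with HFD. Over all cells 7 of 14 compared genes of that list were lower and 0 higher, and without the Lyz2 cells 3 of 12, beside the shares of 7.57% and 4.03% over all genes. Fosb had 172 and 9 UMIs and ratios of 0.319 (0.144 to 0.620) and 0.362 (0.161 to 0.715), Nr4a1 of 0.389 and 0.428 (0.199 to 0.822) and Klf6 of 0.424 and 0.492 (0.267 to 0.843). After thinning Fosb was at -0.46 on the log2 scale and did not pass the size rule. Fos had a ratio of 0.478 over all cells and of 0.887 (0.432 to 1.68) without the Lyz2 cells, and Junb, present in 67 of 69 LFD and 21 of 21 HFD cells, of 0.835 and 0.794. The summed list was at 0.687 (0.614 to 0.766) and 0.757 (0.675 to 0.848). Klf2, a factor of recirculating T cells, was also lower in both settings, at 0.460 (0.194 to 0.941) and 0.422 (0.176 to 0.874). Without the LFD cell richest in the gene, beside the Lyz2 cells, Klf6 was at 0.518 (0.281 to 0.891). The intervals of Nr4a1 (0.541, 0.249 to 1.05) and Klf2 (0.494, 0.205 to 1.03) then included 1. Time from dissection to capture is not given in the sources used here, and its part in these ratios was not tested.

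By list, the summed ratios of HFD over LFD moved with the Lyz2 cells in several cases. T cell receptor signalling stood at 1.69 (1.48 to 1.94) over all cells, with 3 of 15 compared genes higher and 0 lower (2.57% higher and 7.57% lower over all genes), and at 1.29 (1.12 to 1.48) without the Lyz2 cells, with 1 of 13 higher (1.52% higher and 4.03% lower over all genes). The cytotoxic list changed side, from 1.14 (1.04 to 1.25) with 3 of 13 higher and 1 lower to 0.841 (0.768 to 0.921) with 1 of 13 higher and 3 lower. Ccl5 weighed much in this sum, with 1906 UMIs in the 84 T cells without Lyz2, of which 292 were in 1 LFD cell. Without that cell the ratio of Ccl5 moved from 0.729 to 0.871. MHC class I genes went from 1.23 (1.13 to 1.34) to 0.996 (0.913 to 1.09). The fat regulatory list was at 0.449 (0.317 to 0.620) with 2 of 6 genes lower and at 0.452 (0.317 to 0.627) with 3 of 6 lower, and its medians were -1.03 and -1.11 on the log2 scale beside 0.01 and 0.0013 over all compared genes. Under the study's limits its summed log2 ratio was -0.36 (-1.13 to 0.35), an interval that included 0. The regulatory list was at 0.699 (0.507 to 0.944) and 0.619 (0.447 to 0.841), with 1 and 2 of 6 genes lower, but at 0.0082 (-0.61 to 0.59) on the log2 scale after thinning to equal depth. Interferon-induced genes were at 2.03 (1.58 to 2.59) and 1.91 (1.47 to 2.47). Ifi27l2a, the one gene of the list past the size rule, passed it only without the Lyz2 cells. It fell to 1.27 (0.648 to 2.35) without its richest HFD cell as well. Under the study's limits, with 8 HFD cells, the list was at 1.86 on the log2 scale, and the list was not run without single rich cells. NK receptor genes were at 2.42 (1.42 to 3.98) and 1.80 (1.05 to 2.99), with 23 HFD UMIs, but on the log2 scale at -0.90 under the study's limits and at 0.075 without the cells of NK receptors. Secreted and membrane cytokines were at 0.673 and 0.610 (0.456 to 0.804), tissue residency genes at 0.812 and 0.758 (0.595 to 0.956), and proliferation genes at 0.850 and 0.701 (0.508 to 0.948). For chemokine receptors, cytokine receptors, glycolysis, survival, helper polarisation, inhibitory receptors and naive T cell genes the summed ratios lay between 0.724 and 1.04 in the 2 settings, each with no more than 2 genes past the size rule in either direction. The 9 measured genes of the gamma delta list held 11 HFD UMIs and were at 0.664 and 0.508, and the innate-like list was at 1.22 and 0.860, with 11 HFD UMIs. CD8 and CD4 cells were not compared between diets, since the HFD library held 6 and 3 of them.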

How the data were processed

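For each diet the authors deposited 1 table of raw UMI counts per gene and barcode, which Cell Ranger had made against mm10. The table headers name Cell Ranger 3.0.2. The tables were used as deposited. The limits that the study's methods state for clustering, 200 to 2500 genes and under 5% mitochondrial UMIs, were not applied in the main setting. They keep 33 LFD and 8 HFD T cells and were run as an alternative, as was removal of barcodes marked by Scrublet at an expected rate of 1%. Otherwise doublets were kept.

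UMIs were summed over the cells of a set, divided by the total UMIs of the set and scaled to 1000000 (CPM). Levels carry exact Poisson, shares exact (Clopper-Pearson) binomial and ratios exact conditional binomial 95% intervals. The interval of a ratio of shares was taken on the log scale. Shares at 0 have an upper limit set by 3 counts over the group, and folds against 0 UMIs are given as the lower limit of their 95% interval. The intervals treat UMIs as independent, so a gene held by few cells is less certain than its interval. List medians, and single genes given on the log2 scale, use ratios with 0.5 UMIs added. Genes with at least 30 UMIs in a pair of sets were compared. Genes named between diets were the 12 highest and 12 lowest past the size rule with at least 50 UMIs, and between CD8 and CD4 cells the 10 highest and 10 lowest, leaving out the genes of the cell rule, Xist and genes of the Y chromosome, haemoglobin, ribosomal proteins and mitochondria, and any gene of a listed pathway could be named. Thinning drew 1000 UMIs per cell. The members, gene lists and comparisons were chosen with earlier results of these data known.

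Gene positions come from GENCODE M21 (GRCm38). The ratio method was tested on simulated data. Scripts ran in Python 3.11.15 (scanpy 1.11.5, scipy 1.17.1, pandas 2.3.3, numpy 2.4.6) and figures were drawn with matplotlib 3.10.9.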

Additional observations from a re-analysis of the deposited data

How the results depend on the processing

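The share of T cells was lower with HFD under every alternative tried for it. No paired analysis was possible because there was 1 library per diet, and diet ratios within CD8 or CD4 cells were not run because fewer than 15 HFD cells of either class were found. Leaving out the 6 Lyz2 cells, and the richest cell of a gene in a set or library, was chosen after seeing the data. Thinning moved the LFD share of CD8 cells to 15.2% and of CD4 cells to 4.55%, and asking for 2 co-receptor UMIs moved the LFD CD4 share to 1.45% and the HFD shares to 9.52% (CD8) and 0% (CD4). The genes higher and lower with HFD numbered 6 and 10 under the study's limits, 17 and 45 without the Lyz2 cells, 9 and 12 after thinning, and 9 and 49 with a minimum of 100 UMIs. The higher genes numbered 20 without each gene's top cell and 88 with a minimum of 10 UMIs. The genes higher and lower in CD8 than in CD4 cells numbered 9 and 3 under the study's limits and 21 and 9 without the Lyz2 cells.

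In log2 ratios of HFD over LFD, the summed lists moved as follows. Under the study's limits they were 0.24 (receptor signalling), 0.0076 (cytotoxic), -0.36 (fat regulatory), -0.15 (immediate early), 1.86 (interferon) and -0.90 (NK, a change of side). Without NK receptor cells the cytotoxic list was at 0.37 and the NK list at 0.075. Without the Lyz2 cells receptor signalling was at 0.37, and the cytotoxic list at -0.25 and MHC class I at -0.0054 changed side. Thinning gave 0.035 (cytotoxic), 0.0082 (regulatory, a change of side) and -0.37 (immediate early). A mean of CPM over cells gave 0.48 (receptor signalling), -0.057 (cytotoxic, a change of side), -0.64 (fat regulatory), -0.31 (immediate early) and 0.15 (MHC class I). Of the named genes past the size rule in either setting, those that changed side, with 0.5 UMIs added to each sum, were Klrk1 (-1.35), Lyz2 (0.83), H2-Ab1 (0.10), H2-Aa (0.10) and, for CD8 over CD4, Cst3 (0.30) under the study's limits, and Lyz2 (1.17), H2-Aa (0.15), Tnip3 (0.44) and, for CD8 over CD4, Cd74 (0.70) without the Lyz2 cells. Among cells with neither co-receptor, leaving out those with Cd163l1, Foxp3 or Il1rl1, also chosen after seeing the data, took Il2ra to a ratio of 0. Il1rl1, not past the rule over all cells, changed side as well (0.65, study's limits). The added 0.5 alone set the side of Lyz2, H2-Ab1 and H2-Aa under the study's limits and of H2-Aa (a plain ratio of 0.813) and Tnip3 without the Lyz2 cells, as HFD cells held no more than 1 UMI of each. Apart from the Lyz2 cells, which carry the myeloid UMIs, the cause of these changes was not tested. Depth limits the HFD values, where 0 UMIs have an upper limit of 78.6 CPM, and more so sets with fewer UMIs, such as the CD4 cells without Lyz2.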
